A study of Mus musculus with 6 samples.

Results

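The mouse genes with symbols of the form Zfp plus a number were examined for those numbered below 500. The deposited table of 21878 genes held 162 of them, and a further 181 symbols of the same form had a number of 500 or above. RNA was measured in HT22 cells, an immortalized mouse hippocampal neuronal line. The control group (n = 3) received no Al (0 µM) and the Al group (n = 3) received 120 µM aluminum maltolate for 24 h. Maltol, the ligand that keeps aluminum soluble at neutral pH, was also prepared as a control in the study, and which control was sequenced is not given in the sources used here. The 6 libraries were the input libraries of an m6A immunoprecipitation experiment, in which total RNA is fragmented and sequenced without enrichment. The labels mark the treated libraries only by another letter, and the study's own account was used to read that letter as Al. All libraries came from 1 cell line, no genetic change was made, and the samples were described as biological replicates.

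Most Zfp genes encode proteins with C2H2 zinc fingers, short loops in which a pair of cysteines and a pair of histidines hold a zinc ion and adjacent residues read the bases of DNA. The largest group of them also carries a KRAB domain, which recruits the corepressor KAP1 (gene Trim28) and, through it, the histone methyltransferase Setdb1 and HP1 proteins to silence retrotransposons and imprinted loci. Other members activate promoters, bind RNA or act in mitosis, and the symbol series also contains genes with few or atypical fingers. The mRNAs of many members are scarce and turn over quickly.

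Recovered sequencing depth was 37784216 to 44210157 reads on listed genes in the control libraries and 20960395 to 26458031 in the Al libraries. Values below are scaled FPKM (fragments per kilobase of transcript and unit of library depth, divided by a size factor of each library) unless stated, and genes with P under 0.05 before adjustment and a log2 fold change beyond 0.58 in either direction were called. The defining neuronal markers were scarce: of 13, 3 (Tubb3, Syp and Elavl3) reached the mean of 0.1 FPKM needed for testing, Snap25 had 0 reads, and Rbfox3 and Map2 had at most 4 and 2 reads in a library. Collagen RNA was abundant, with Col1a1 at 835 ± 194 scaled FPKM in controls against 1580 ± 418 with Al (mean ± SD, n = 3). Its log2 fold change of 0.92 was 0.43 for FPKM as deposited, 0.13 for TPM and -0.46 after quantile normalization, none of them a call, and that of Col3a1, 0.37 and not called, was -0.12, -0.42 and -0.74, the last a call. Summed over 11 markers of glia, microglia and fibroblast-like cells, the level was 1000 to 1690 in control libraries and 1850 to 2880 in Al libraries, and 3.89 to 12.4 and 3.35 to 4.38 without Col1a1 and Col3a1. Of the 6 tested members of that list, 2 (Col1a1 and Cx3cr1) were called higher and 1 (Dcn) lower, and Aqp4 had 0 reads. Cx3cr1 averaged 0.0564 in controls and 0.649 with Al. It reached the filter of 0.1 only through the Al group, so its call was tied to the filter. The call of Col1a1 was also lost without control replicate 3 (0.72). Their part in the results below was not tested. In bulk RNA, fewer cells of a type and less RNA per cell cannot be told apart.

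In the Al group, the median change of the tested Zfp members lay above that of all tested genes. Of the 162 members, 145 were tested, and 62 (42.8%) were called higher against 26.2% of all 12889 tested genes, while 19 (13.1%) were called lower against 24.4%. The remaining 64 tested members were not called. The median log2 fold change was 0.46 over tested members and 0.03 over all tested genes, with members' quartiles at -0.19 and 0.94. The Al libraries lay wholly above the control libraries for 79 members (54.5%, against 35.1% of all tested genes) and wholly below for 28 (19.3%, against 33.1%), so the groups did not overlap for 73.8% of members and 68.1% of all tested genes. The same 62 and 19 members were called with a Benjamini-Hochberg adjusted P under 0.05 in limma added to the rule. No test of the family against other genes was made, so these are descriptions.

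The absolute direction depended on how the libraries were scaled. The members' median stayed above that of all genes under each of 4 scalings, but only quantile normalization could have changed this. Size factors, FPKM as deposited and TPM differ by a constant per library, which shifts members and all genes nearly alike. With FPKM as deposited, 30 members (20.7%, against 14% of all tested genes) were called higher and 34 (23.4%, against 42%) lower, the median over members was -0.02 and that over all genes -0.43, a shift of -0.46 from the scaled values. With TPM, in which every library sums to the same total, 20 members (13.8%, against 9.3%) were called higher and 50 (34.5%, against 53.1%) lower, and the medians were -0.31 and -0.72. The members' median exceeded that of all genes by 0.43 with size factors, 0.41 for FPKM as deposited, 0.40 for TPM and 0.59 after quantile normalization. Of the 62 members called higher, 14 had a fold change of opposite sign with TPM. Of the 19 called lower, 0 changed sign under the other scalings. With TPM or FPKM as deposited, controls are scaled up relative to Al libraries, so a lower call could not turn positive there. Only quantile normalization could have turned a lower call, and it turned 0 of the 19. Under all 4 scalings, 20 members were called higher and 16 lower. The share of all tested genes called under all 4 was not computed, so these counts have no comparison. The 20 include Zfp97, whose control mean of 0.0757 FPKM as deposited lay under the filter of 0.1.

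**Figure D1:**
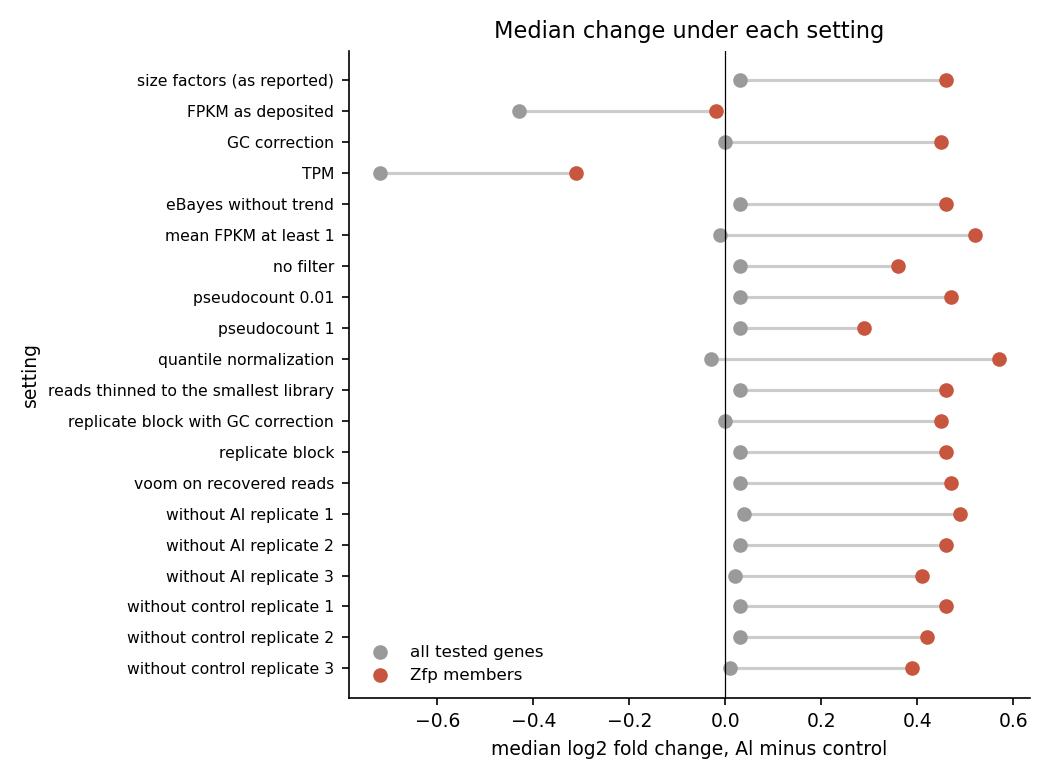
Median log2 fold change (x axis, Al minus control) of all tested genes (grey) and of tested Zfp members (red) under each of 20 settings (y axis). The members lie to the right of all genes in every setting, but cross 0 with FPKM as deposited (-0.02) and TPM (-0.31). Size factors, FPKM as deposited and TPM shift both medians nearly alike, so the gap between the medians is nearly fixed among these settings.

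Tested members were scarcer than most genes, so they were set against other genes of similar mean level over both groups. That mean contains the Al values, so genes that rise are moved to higher ranges. Zfp408, for example, stood at 3.03 in controls and 21.1 with Al. Their median mean level was 4.02 scaled FPKM against 7.14 for all tested genes, and 103 (71.0%) lay under the latter. Between 3 and 10 scaled FPKM, the most populated range, 25 of 52 members were called higher and 6 lower, with a median of 0.51; the 3148 other genes there had a median of -0.30, with 15.3% called higher and 35.8% lower. Between 10 and 30, 18 of 24 members were called higher and 2 lower (median 0.99), against 24.4% and 20% of 3185 other genes (median 0.06). Between 1 and 3, 12 of 37 members were called higher and 7 lower, with a median of 0.24 against -0.43 for other genes, of which 19.1% were called higher and 42.1% lower.

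The range from 0.3 to 1 went the other way. Between 0.3 and 1 scaled FPKM, 2 of 17 members were called higher and 4 lower, and their median of -0.42 lay below the 0.12 of 1292 other genes, of which 30.4% were called higher and 24.1% lower. Below 0.3 the median was 0.48 for 9 members and 0.24 for other genes. There, 2 members were called higher (22.2%, against 23.2% of other genes) and 0 lower (against 12.6%). Those 2, Zfp352 and Zfp97, had control means of 0.0437 and 0.0757 FPKM as deposited and Al means of 0.163 and 0.281. They passed the filter of 0.1 only through the Al group, so their higher calls were tied to the filter. The 6 members at 30 or above had a median of 0.92 against 0.54, and 3 of them were called higher (50%, against 47.6% of other genes). Across the 145 tested members, log2 fold change and mean level had a Spearman rho of 0.42, compared with 0.16 over all tested genes. Level and change are not independent, since the level contains the Al values, and these genes share the same 6 libraries. Weighted to the members' levels, 21.4% of other genes were called higher and 30.9% lower, and their median was -0.16.

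**Figure D2:**
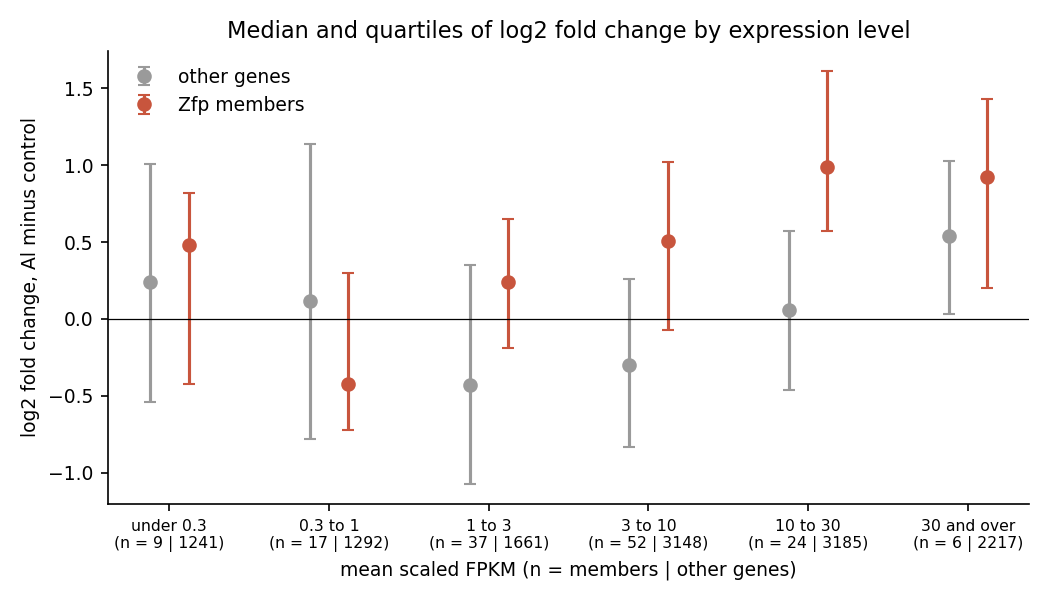
Median (points) and quartiles (bars) of the log2 fold change (y axis, Al minus control) in 6 ranges of mean scaled FPKM (x axis) for Zfp members (red) and other tested genes (grey). Members lie above other genes in all ranges but 0.3 to 1, where their median is -0.42 against 0.12.

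**Figure D3:**
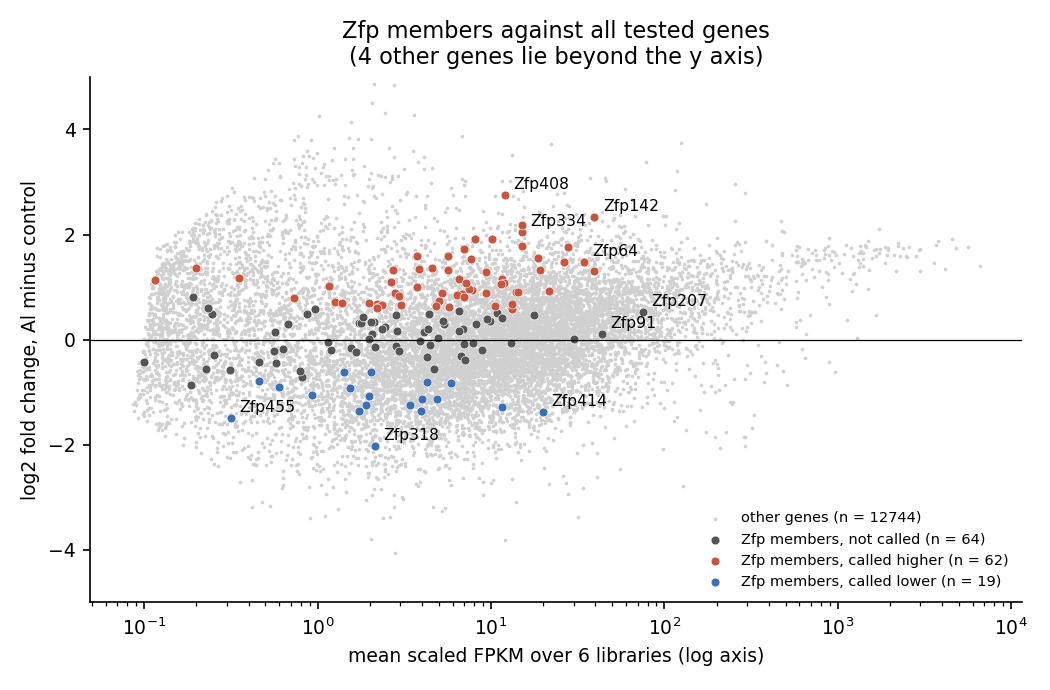
Log2 fold change (y axis, Al minus control) against mean scaled FPKM over the 6 libraries (x axis, log scale) for each tested gene, with the 62 Zfp members called higher in red, the 19 called lower in blue and the 64 not called in dark grey. Zfp408 and Zfp142 lie highest among members and Zfp318 lowest.

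The other members, 17 in all, were not tested in the main fit. Zfp287, Zfp3 and Zfp42 had 0 reads in all 6 libraries; a 0 in a single library allows up to 3 reads there, for counting error only. Zfp105, Zfp114, Zfp13, Zfp2, Zfp286, Zfp366, Zfp423, Zfp433, Zfp454, Zfp457, Zfp459, Zfp467, Zfp488 and Zfp92 had some reads but a mean under 0.1 FPKM, and none of them exceeded 69 reads in a library. They were left out of the main fit by the filter on low values. A fit without the filter took in 159 members, and no single change from it is given for them. Among tested members, 13 had under 20 reads in at least 1 library.

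Zfp408, whose human counterpart is mutated in inherited retinal disease, had the largest increase. The gene (ENSMUSG00000075040.9) lies on chromosome 2 from 91643669 to 91649791 on the minus strand (GRCm38). It stood at 3.12, 3.16 and 2.81 in controls and at 22.0, 24 and 17.3 with Al. Every Al library exceeded every control library, and the log2 fold change was 2.75 ± 0.14 (SE; limma, adjusted P = 4.93e-06). Zfp142, a gene with 36 predicted fingers whose human counterpart is linked to a neurodevelopmental disorder, was among the 5 most abundant members (ENSMUSG00000026135.17, chromosome 1 from 74565127 to 74588246, minus strand). It stood at 13.6, 11.2 and 14.7 in controls and at 63.8, 66.9 and 66.9 with Al, a log2 fold change of 2.33 ± 0.12 (limma, adjusted P = 4.68e-06). The lowest Al library was far above the highest control library. Plcd4 overlaps Zfp142 on the opposite strand, as Tepp does Zfp319, Arhgef40 Zfp219 and Pcif1 Zfp335, and whether strand was used in counting is not given in the sources used here.

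Zfp35 rose from 5.35 ± 0.786 to 24.6 ± 4.02 (mean ± SD, n = 3), or by 2.18 on the log2 scale. Zfp334, a KRAB gene, rose from 5.79 ± 0.44 to 24.2 ± 0.507 (2.05), the tightest Al replicates of the 10 largest increases. Zfp472 and Zfp101, both KRAB genes on chromosome 17, had log2 fold changes of 1.92 each. Zfp263, a sequence-specific DNA-binding factor, rose from 6.75 ± 0.519 to 23.5 ± 3.41 (1.78).

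Zfp319 rose from 12.5 ± 1.31 to 43.0 ± 7.06 scaled FPKM (log2 fold change 1.77), Zfp84 by 1.72 and Zfp189 by 1.60. These 10 were chosen among members without overlap between groups and with an adjusted P under 0.05, so non-overlap was fixed by the choice. Their adjusted P values in limma were at most 4.75e-05, and each was called higher in all 20 fits. Even with TPM, the scaling least favourable to increases, the smallest of the 10 log2 fold changes was 0.84, for Zfp189.

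**Figure D4:**
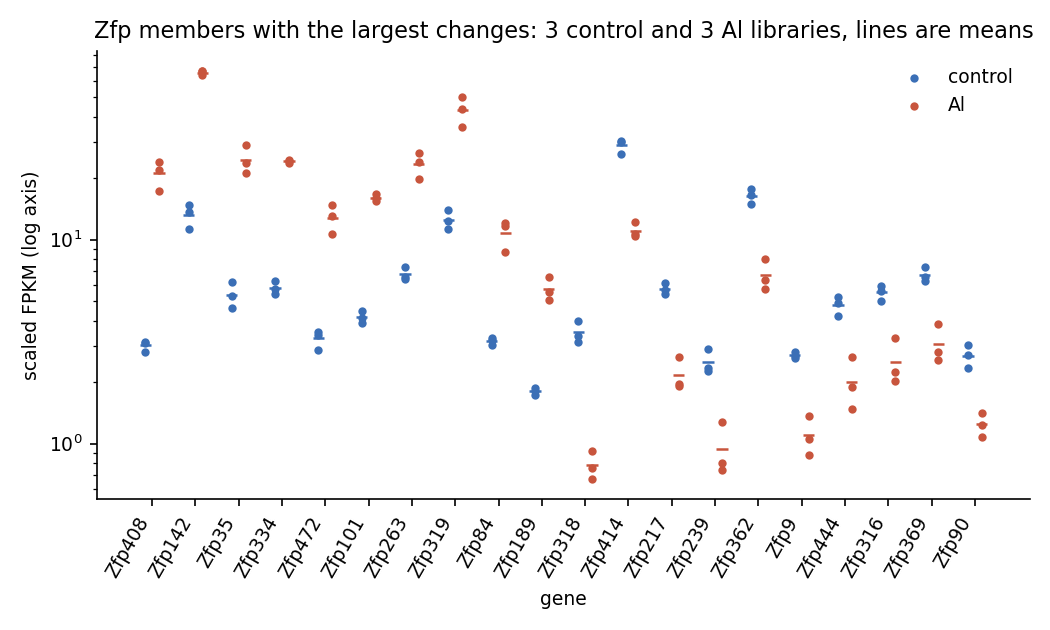
Scaled FPKM (y axis, log scale) of the 10 members with the largest increases and the 10 with the largest decreases (x axis) in each of 3 control (blue) and 3 Al (red) libraries, with lines at the group means. The 20 genes were chosen only where the groups do not overlap. They run from Zfp408 (2.81 to 3.16 against 17.3 to 24) to Zfp90 (2.34 to 3.03 against 1.08 to 1.41).

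The largest decrease was that of Zfp318, a nuclear factor known as a coregulator of the androgen receptor and as required for IgD expression in B cells. The gene (ENSMUSG00000015597.17) lies on chromosome 17 from 46383731 to 46420920 on the plus strand. It stood at 4, 3.38 and 3.14 in controls and at 0.671, 0.92 and 0.758 with Al, resting on 2274 to 2502 and 199 to 227 reads. The groups were separated by a wide gap, and the log2 fold change was -2.03 ± 0.19 (limma, adjusted P = 4.72e-05). Zfp414 stood at 30.1, 30.5 and 26.2 in controls and at 10.6, 12.2 and 10.4 with Al (log2 fold change -1.38 ± 0.11). It was the most abundant member among the 10 largest decreases.

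Zfp217, a transcriptional corepressor component that is an oncogene in breast cancer and is known to restrain m6A deposition in embryonic stem cells, also fell. It stood at 6.10, 5.65 and 5.40 in controls and at 1.95, 1.92 and 2.67 with Al (log2 fold change -1.36 ± 0.16; limma, adjusted P = 0.000158). All 3 Al libraries were below all controls.

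Zfp239 (-1.35), Zfp362 (-1.28), Zfp9 (-1.25) and Zfp444 (-1.24) fell by similar amounts on the log2 scale. Zfp362 was the most abundant of them, at 16.4 ± 1.39 in controls and 6.72 ± 1.19 with Al. Zfp316, Zfp369 and Zfp90, all KRAB genes, had log2 fold changes of -1.13, -1.12 and -1.07. All 10 decreases were called in all 20 fits, with adjusted P values in limma of at most 0.00122. Zfp455, named here after its values were seen, had a lower log2 fold change than all but Zfp318, -1.50 ± 0.37, but a mean below 1 FPKM, and its Al libraries held as few as 2 reads.

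To place the outermost members in their genomic context, the RefSeq promoter windows of Zfp408, Zfp142 and Zfp318 (GRCm38.p6, 250 bases before to 50 after the start, 5′ to 3′ on the gene's strand) are shown, with capitals for any match on either strand to 12 motifs searched after the calls had been seen. The windows are chr2:91649742-91650041 (minus strand), chr1:74587979-74588278 (minus strand) and chr17:46383516-46383815 (plus strand).
Zfp408: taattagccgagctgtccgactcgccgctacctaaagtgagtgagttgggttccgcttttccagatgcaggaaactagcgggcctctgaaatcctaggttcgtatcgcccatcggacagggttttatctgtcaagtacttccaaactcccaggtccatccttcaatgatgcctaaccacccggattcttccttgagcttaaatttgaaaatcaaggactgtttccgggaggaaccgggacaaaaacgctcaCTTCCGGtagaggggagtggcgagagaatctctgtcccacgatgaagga
Zfp142: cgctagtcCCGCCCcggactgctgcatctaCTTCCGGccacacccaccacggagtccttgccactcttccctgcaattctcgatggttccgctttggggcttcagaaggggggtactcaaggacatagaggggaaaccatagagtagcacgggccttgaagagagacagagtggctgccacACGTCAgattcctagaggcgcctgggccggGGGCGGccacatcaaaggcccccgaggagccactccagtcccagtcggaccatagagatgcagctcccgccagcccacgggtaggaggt
Zfp318: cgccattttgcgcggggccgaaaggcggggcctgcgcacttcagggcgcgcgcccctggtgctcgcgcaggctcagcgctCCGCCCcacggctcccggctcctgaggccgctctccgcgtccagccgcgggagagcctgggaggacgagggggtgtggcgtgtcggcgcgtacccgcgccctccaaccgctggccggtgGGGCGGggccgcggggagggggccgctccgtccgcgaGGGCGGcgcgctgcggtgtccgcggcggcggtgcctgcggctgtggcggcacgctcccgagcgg
Promoter windows were matched for 119 tested members, of which 54 were called higher and 13 lower, and for 9785 tested genes. The GABPA motif CCGGAAG occurred in 33 members' windows (27.7%), in 16 of those called higher, in 3 of those called lower and in 19.7% of tested genes. The NF-Y motif CCAAT occurred in 59 (49.6%), in 31 called higher, in 3 called lower and in 43.3% of tested genes.

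The SP1 motif GGGCGG occurred in 53 members' windows (44.5%), in 24 of those called higher, in 4 of those called lower and in 66.8% of tested genes. The palindromic NRF1 motif occurred in 7 windows (5.88%), against 2.30% of tested genes, and its looser form with any base in the left centre position, which includes it, in 13 (10.9%), against 11.3%. The CREB motif TGACGTCA occurred in 6 (5.04%, against 3.53%) and its shorter form TGACGT in 12 (10.1%, against 13.1%). The E-box CACGTG occurred in 6 (5.04%, against 11.3%). ACTACAA occurred in 13 (10.9%, against 4.97%), TCTCGCGA in 5 (4.2%, against 2.41%), CATCCG in 13 (10.9%, against 9.93%) and the YY1 motif in 3 (2.52%, against 1.78%). In the windows of members called higher and lower, in this order, these motifs occurred in 3 and 0 (NRF1), 4 and 1 (its looser form), 2 and 0 (CREB), 8 and 0 (TGACGT), 1 and 0 (E-box), 3 and 1 (ACTACAA), 3 and 1 (TCTCGCGA), 4 and 2 (CATCCG), and 1 and 0 (YY1). These counts are descriptions of letters in the windows and none was tested. Over all 32851 windows of the table, the shares were 8.86% for CCGGAAG, 37.4% for CCAAT, 35.7% for GGGCGG, 0.971% and 4.6% for the NRF1 motif and its looser form, 1.79% for TGACGTCA, 7.51% for TGACGT, 7.15% for CACGTG, 3.24% for ACTACAA, 0.995% for TCTCGCGA, 6% for CATCCG and 0.633% for the YY1 motif.

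Members were next described by role, and the counts in these lists, by domain and by position stand against 26.2% of all tested genes called higher and 24.4% called lower. Of the 6 RNA-bound and mitotic members, 1 was called higher, 1 (Zfp318) lower and 4 not called. Zfp326, part of a complex that couples splicing to RNA polymerase II elongation, rose from 4.56 ± 0.585 to 9.72 ± 0.59 (log2 fold change 1.08, not called with TPM at 0.31). Zfp207, which loads the checkpoint protein Bub3 onto kinetochores, was the most abundant member. Its level was 59.9, 64.7 and 60.4 in controls and 88.5, 87.2 and 92.1 with Al. The groups did not overlap, but the log2 fold change of 0.53 ± 0.09 was under the threshold and was -0.25 with TPM.

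Zfp36 encodes tristetraprolin, which binds AU-rich elements and speeds the decay of its target mRNAs, its own among them. It stood at 8.73, 7.11 and 8.78 in controls and at 10.4, 10.7 and 11.2 with Al. The Al libraries were all higher, the log2 fold change was 0.39 ± 0.12 (limma, adjusted P = 0.0174) and it was not called. The sign turned with FPKM as deposited (-0.09) and TPM (-0.38). A site of the kind it binds lies in its own 3′ UTR and is shown with the heptamer in capitals, from positions 2580 to 2609 of the GENCODE transcript Zfp36-201.
Zfp36 site: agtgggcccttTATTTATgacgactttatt
Zfp106, an RNA-binding protein needed for motor neuron upkeep, stood at 30 ± 2.88 and 30.2 ± 3.53 (log2 fold change 0.01 ± 0.12). Zfp346, which binds double-stranded RNA, stood at 6.14 ± 0.346 and 6.93 ± 0.947 and was not called either. With TPM both were called lower, Zfp106 at -0.78 and Zfp346 at -0.61.

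Of the 16 sequence-specific activators and repressors, 9 were called higher (56.2%, against 26.2% of all tested genes), 2 lower (12.5%, against 24.4%) and 5 not called, with a median of 0.72. Zfp64, a factor that drives transcription of the MLL gene in leukemia, stood at 18.5, 17.6 and 18.1 in controls and at 49.8, 53.2 and 47.9 with Al. The groups did not overlap, the log2 fold change was 1.47 ± 0.09 (limma, adjusted P = 8.61e-06) and the call held under all 4 scalings. Zfp384, a nuclear matrix protein that binds matrix metalloproteinase promoters, rose from 10.9 ± 0.29 to 27.4 ± 2.31 (1.32), and Zfp367 from 22.6 ± 1.49 to 55.7 ± 2.24 (1.30).

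Zfp281, a pluripotency factor, rose from 7.22 ± 1.26 to 16 ± 0.345 (log2 fold change 1.15) and Zfp451, a SUMO ligase, from 7.60 ± 0.987 to 16.2 ± 1.61 (1.08). Zfp143, an activator of small nuclear RNA and many mRNA promoters, rose by 0.97 and Zfp276 by 0.87. Zfp276 overlaps Fanca and Vps9d1 on the opposite strand, so its value is uncertain. Zfp410, the dedicated activator of Chd4, rose from 5.07 ± 0.33 to 8.98 ± 0.456 (0.81), while Chd4 itself fell from 82.0 ± 2.95 to 54.3 ± 4.05 (-0.60 ± 0.10; limma, adjusted P = 0.000908). The call of Chd4 was lost without Al replicate 1 (-0.55) or Al replicate 2 (-0.56). Zfp131, a BTB-domain factor, was called higher at 0.64, which became -0.14 with TPM. With TPM, Zfp384 (0.54), Zfp367 (0.52), Zfp281 (0.37), Zfp451 (0.30), Zfp143 (0.19), Zfp276 (0.10) and Zfp410 (0.04) kept their sign but were not called. With FPKM as deposited, Zfp143 (0.49), Zfp410 (0.33), Zfp131 (0.15) and Zfp276 (0.39) were not called either.

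The 2 called lower in this list were Zfp217 and Zfp395, a regulator linked to hypoxia and to the huntingtin promoter. Zfp395 stood at 5.61, 5.70 and 4.82 in controls and at 2.64, 2.39 and 4.33 with Al. The third Al library lay close to the lowest control, and the log2 fold change was -0.81 ± 0.22 (limma, adjusted P = 0.0109), and the call was lost with quantile normalization (-0.52). Zfp277, a repressor of the Ink4a/Arf senescence locus, stood at 7.18 ± 0.472 and 6.75 ± 0.545 (-0.09 ± 0.12) and was not called, but was called lower with TPM (-0.87). Zfp219, a partner of Sox9, stood at 3.91 ± 0.05 and 3.86 ± 0.262 and was likewise called lower with TPM alone (-0.79). Zfp148 (0.20), Zfp91 (0.10), a ubiquitin ligase, and Zfp335 (0.46), a subunit of a histone methyltransferase complex, were not called; their changes turned negative with TPM, where Zfp91 was called lower (-0.69).

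Among neural and developmental members, 1 of 5 tested, Zfp407, was called higher, from 4.51 ± 0.202 to 8.21 ± 0.179 (log2 fold change 0.85), and was not called with FPKM as deposited (0.37) or TPM (0.08). Zfp292, linked to neurodevelopmental disorders, stood at 9.70, 9.83 and 9.54 in controls and at 10.9, 11.1 and 17.8 with Al. A single Al library carried most of its difference (log2 fold change 0.41 ± 0.18). Zfp462 (0.29) and Zfp365 (-0.20), which acts in neurite growth and genome stability, were not called, but Zfp365 was called lower with FPKM as deposited (-0.69) and TPM (-0.98). Zfp423, a factor of neural and fat precursor cells, and Zfp488, a factor of oligodendrocytes, had at most 2 and 6 reads in any library and were not tested.

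Among pluripotency and imprinting members, 2 of 5 tested were called higher, Zfp281 and Zfp445. Zfp445 and Zfp57 are KRAB proteins that keep methylation at imprinted loci. Zfp445 stood at 10.8, 10.1 and 9.69 in controls and at 15.8, 15.7 and 17.9 with Al (log2 fold change 0.68 ± 0.10), and was not called with FPKM as deposited (0.20) or TPM (-0.10). Zfp57 stood at 5.94, 5.13 and 5.55 in controls and at 3.71, 3.21 and 4.40 with Al. Its Al libraries were all lower, but the log2 fold change of -0.55 ± 0.15 (limma, adjusted P = 0.0117) was just under the threshold. It was called lower with FPKM as deposited (-1.03), TPM (-1.32), thinned reads (-0.58), and without Al replicate 3 (-0.65) or control replicate 2 (-0.62). Zfp296, associated with pluripotency, stood at 0.598 ± 0.185 and 0.748 ± 0.166 and was not called, and Zfp42 (Rex1), a marker of naive pluripotency, had 0 reads.

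**Figure D5:**
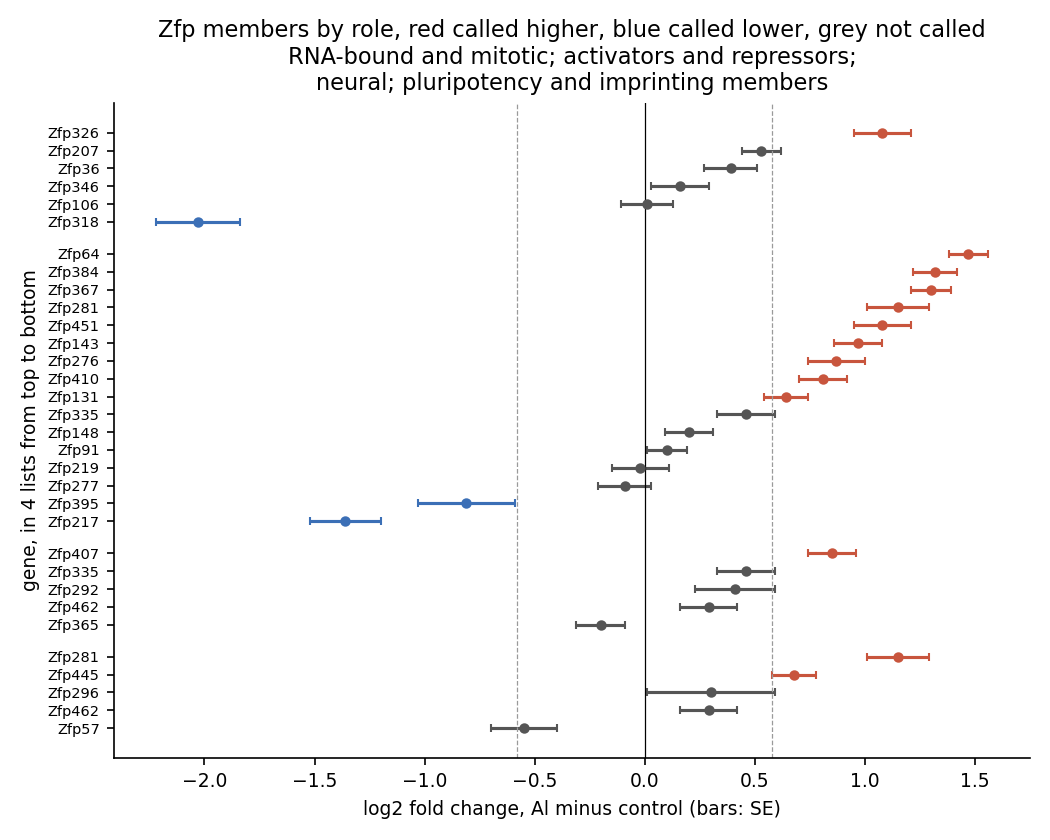
Log2 fold change with SE (x axis, Al minus control) of the tested members of the 4 role lists (y axis), in red where called higher, blue where called lower and grey where not called, with dashed lines at the threshold of 0.58. In the second list, 9 members from Zfp64 (1.47) to Zfp131 (0.64) lie above the upper line.

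A KRAB pattern was found in the translated coding sequence of 79 members, of which 72 were tested. The pattern is strict and misses some KRAB proteins, Zfp57 among them, so members without a match are not all free of the domain. Of the 72, 33 were called higher and 11 lower, with a median of 0.49, and of the 73 tested members without a match 29 were called higher and 8 lower, with a median of 0.39. Members with the pattern had a median level of 2.35 scaled FPKM and those without one 6.36. Of 82 tested members with 10 or more fingers, 40 were called higher and 10 lower (median 0.59), and of 63 with fewer, 22 and 9 (median 0.30). Log2 fold change and number of fingers had a Spearman rho of 0.15 over 145 members. No difference between these groups was tested.

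In the corepressor pathway used by KRAB proteins, 2 of 19 tested genes (Cbx3 and Ehmt2) were called higher (10.5%, against 26.2% of all tested genes) and 1 (Chd4) lower (5.26%, against 24.4%), with a median of 0.01. Trim28, the KAP1 scaffold itself, stood at 104.0 ± 4.65 and 110.0 ± 11.6 (log2 fold change 0.08 ± 0.12) and Setdb1 at 16.6 ± 0.763 and 16.8 ± 1.11 (0.01 ± 0.10). Cbx3, an HP1 protein, rose from 20.3 ± 1.38 to 37.8 ± 3.39 (0.89), and Ehmt2, a histone H3 lysine methyltransferase, from 51.4 ± 0.0547 to 79.8 ± 1.94 (0.63). Both calls were lost with FPKM as deposited (Cbx3 0.40, Ehmt2 0.15) and TPM (0.11 and -0.15), and that of Ehmt2 also with quantile normalization (0.18). Dnmt1 (-0.38) and Uhrf1 (-0.45), which maintain DNA methylation, were not called but were among the lower calls with FPKM as deposited, TPM and quantile normalization. With TPM, 13 genes of the list were called lower and 0 higher, where 9.3% of all tested genes were called higher and 53.1% lower, and with FPKM as deposited 7 lower and 0 higher, where these shares were 14% and 42%.

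Many members lie in clusters of tandem copies, and neighbours did not always move the same way. In all, 5 runs of at least 5 members within 1 Mb of the next were found (GRCm38), and the genes named from them were chosen after their values were seen. On chromosome 7 from 29768552 to 30169750, 5 of 11 tested members were called higher and 2 lower, from Zfp84 (1.72), Zfp382 (1.54) and Zfp146 (1.48) to Zfp260 (-0.82). On chromosome 17 from 21008903 to 21769342, 4 of 6 were called higher, Zfp51 (1.59) and Zfp52 (1.37) most, and 0 lower. On chromosome 13 from 67194506 to 67827002, where all 12 members had the KRAB pattern, 3 of 10 tested were called higher and 2 lower (median 0.02). On chromosome 7 from 24081924 to 24515682, 4 of 10 were called higher and 1 lower (median 0.45), and from 12804977 to 12985714, 1 of 5 was called higher (median -0.19). Copies within a cluster are alike in sequence and can share reads, so values of single members are uncertain to that extent.

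Transcripts of tested members were longer and less GC-rich than most, with a median GC content of 45.7% against 50.8% for tested genes with an annotation and a median 3′ UTR of 1240 against 867 bases. Their 3′ UTRs held a median of 2.03 ATTTA pentamers per 1000 bases, against 1.27. Within the family, the 49 members lowest in GC content had a median log2 fold change of 0.58, with 24 called higher and 4 lower. The middle 48 had 0.48, with 21 and 6, and the 48 highest had 0.33, with 17 and 9. Of all tested genes, at any GC content, 26.2% were called higher and 24.4% lower. Log2 fold change had Spearman correlations of -0.09 with GC content, -0.13 with 3′ UTR length and 0.11 with pentamer density, over 145, 145 and 140 members. After a correction for GC content across all genes, 61 members were called higher and 17 lower (all genes 25.5% and 25.5%).

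The 181 Zfp genes numbered 500 or above were described for comparison. Of 157 tested, 51 (32.5%) were called higher and 35 (22.3%) lower, with a median of 0.17, against 42.8%, 13.1% and 0.46 for the members below 500. The difference between both sets was not tested.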

How the data were processed

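Total RNA of HT22 cells was made into libraries with a stranded mRNA kit per the labels. The authors trimmed reads, removed ribosomal RNA and aligned with HISAT2, and deposited 1 FPKM value per gene symbol and library. Trimmomatic and SortMeRNA are named in the study's methods and fastp, HISAT2 and HTSeq in the submitters' processing notes, without versions. The genome build is given differently by the sources (GRCm38/mm10 in the methods, GRCm39 in the notes), and coordinates here are those of GENCODE release M21 and RefSeq on GRCm38. The authors called differential expression with DESeq2 at the thresholds used here. Whether a read pair was counted once, and with which strand setting, is not given in the sources used here.

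Whole reads were recovered from the steps of the deposited FPKM for 99.96% of genes above 0; 99.95% of nonzero values matched whole reads within a relative tolerance of 1e-06. On simulated FPKM of 17240 genes, 96.5% of genes came back exactly. An earlier simulation on a smaller random subset of genes had failed to return exact reads; the cause was not tested, and the simulation was then run on all recovered genes, as in the real table. Reads bear only on the stated read counts and depths and on the fits made from them, not on the reported fold changes. FPKM were divided by median-of-ratios size factors (0.799 to 1.20, from 10337 genes), and log2(scaled FPKM + 0.1) was fitted with limma 3.58.1 in R 4.3.3 (lmFit, eBayes with trend) on the 12889 genes whose mean FPKM reached 0.1. Fold changes are on that scale and understate those of low genes. P values were adjusted by the Benjamini-Hochberg method across the genes tested in each fit. On simulated data for 12809 genes, a simulated log2 change of 2 was called in 100.0% of cases, one of 1 in 92.9%, and no change in 0.492%. Only 100 and 99 genes were changed by these amounts, in both directions, with a single fixed noise level. In the data 50.6% of tested genes were called, so the simulated shares do not give the error rate here. Replicates of a group differed beyond sampling noise.

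The members, lists and tests were chosen with earlier results of these data known. Named were the 10 largest increases and 10 largest decreases among members with a mean FPKM of at least 1, an adjusted P under 0.05 and no overlap between groups, the 5 most abundant members and 4 role lists. KRAB, SCAN and finger patterns were searched in translated GENCODE coding sequences of the 162 members, all matched by symbol; a RefSeq protein table had been planned and was not used here. Promoter motifs, clusters, GC content and UTR features were examined after the calls had been seen. Alternatives, 19 further fits and an adjusted P rule, covered scaling, pseudocount, filter, trend, replicate block, GC, reads and each library left out. Python 3.11.15, numpy 2.4.6, pandas 2.3.3 and matplotlib 3.10.9 were used.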

Additional observations from a re-analysis of the deposited data

How the results depend on the processing

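The excess of the members' median over that of all genes was above 0 in all 20 fits (0.43 as reported). It was 0.59 with quantile normalization, 0.52 with mean FPKM at least 1, 0.33 without a filter and 0.27 with a pseudocount of 1. With 1 library left out it was 0.38 to 0.45. FPKM as deposited and TPM only rescale whole libraries, so they could hardly change it. The members' own median (0.46 as reported) moved to -0.02 with FPKM as deposited, -0.31 with TPM, 0.57 with quantile normalization, 0.52 with mean FPKM at least 1, 0.36 without a filter and 0.29 with a pseudocount of 1, and was 0.39 to 0.49 with 1 library left out. For KRAB members (0.49 as reported) these values were 0.04, -0.26, 0.64, 0.61 and, with a pseudocount of 1, 0.31.

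Members called higher and lower (62 and 19) became 30 and 34 with FPKM as deposited (all genes 14% and 42%). With TPM they were 20 and 50 (all genes 9.3% and 53.1%). With a pseudocount of 1 they were 46 and 12 (all genes 21.1% and 18.8%). With 1 library left out they were 54 to 61 and 17 to 21 (all genes 24.8% to 27.1% and 23.0% to 25.7%). With limma voom on the recovered reads, 64 members were called higher and 19 lower (all genes 26.5% and 24.4%). KAP1 pathway calls (3) became 7, 13 and, with quantile normalization, 5, and 2 to 3 with 1 library left out; calls among later Zfp genes (86) were 67 with a pseudocount of 1, 75 with mean FPKM at least 1, 92 with TPM, 94 with FPKM as deposited and 78 to 86 with 1 library left out. KRAB members' median was 0.44 to 0.53 with 1 library left out. With the replicate block, 62 members were called higher and 19 lower (all genes 26.0% and 24.2%) and the median was 0.46. Same-numbered libraries correlated at -0.0329, -0.0257 and -0.0733, so the numbers were not read as pairs. The block changed no call of a named Zfp gene, but Col1a1 lost its call (0.92, limma, unadjusted p = 0.0509).

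Signs that turned: with FPKM as deposited Zfp91 -0.39, Zfp36 -0.09, Zfp106 -0.48, Zfp346 -0.32, Zfp148 -0.28, Zfp335 -0.02, Zfp462 -0.20, Zfp292 -0.07 and Zfp296 -0.12; with TPM Zfp207 -0.25, Zfp91 -0.69, Zfp36 -0.38, Zfp106 -0.78, Zfp346 -0.61, Zfp148 -0.58, Zfp131 -0.14, Zfp335 -0.32, Zfp462 -0.49, Zfp292 -0.37, Zfp445 -0.10 and Zfp296 -0.38; with quantile normalization Zfp91 -0.24, Zfp106 -0.22, Zfp219 0.29 and Zfp277 0.09. With GC correction, with or without the block, Zfp106 was -0.03 and Zfp219 0.06. Without 1 library, Zfp106 ranged from -0.08 to 0.07 and Zfp219 turned to 0.0045 and 0.02. The cause was not tested. Zfp131 was not called without control replicate 1 (0.58). Calls were gained for Zfp57 and Zfp365 with FPKM as deposited and for these, Zfp277, Zfp219, Zfp91, Zfp106 and Zfp346 with TPM, all lower, and for Zfp57 in 3 further fits, and lost for Zfp395 with quantile normalization. Of the tested members, 13 had under 20 reads in a library, and their values are the least precise.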
